A study of Mus musculus with 18 samples.

Results

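The Hox genes were taken as rows of the deposited gene table whose symbol reads Hoxa, Hoxb, Hoxc or Hoxd followed by a number. The 38 described here, of 21859 genes in all, are 10 in the HoxA cluster, 10 in HoxB, 9 in HoxC and 9 in HoxD. Rows of the same symbols in the table of promoter upstream transcripts (PROMPTs, short antisense RNAs made divergently from a gene's promoter) gave 25 of 32253 entries. The values come from transient transcriptome sequencing (TT-seq) of mouse E14 embryonic stem (ES) cells, in which RNA made during a 5 min pulse of 4-thiouridine is purified and sequenced, so that each value reports new transcription and not the stored mRNA. The study followed depletion of SPT16, the larger subunit of the histone chaperone FACT, with 18 libraries in 6 groups of 3. All cells carry osTIR1, the plant F-box protein through which auxin marks a tagged protein for destruction. The Untagged_EtOH and Untagged_3-IAA groups have no degron on SPT16, and the groups named SPT16_AID_V5 Clone1 and Clone2, each grown from 1 clone, carry a C-terminal mini-AID and triple V5 tag on Supt16, the gene for SPT16. Each line received either 0.1% ethanol or the auxin 3-IAA for 24 h, which gives 6 SPT16-depleted libraries and 12 others. The labels write the auxin dose as 500 nM and the methods write the same figure in micromolar, a difference that was not settled. The 3 libraries of a group are technical repeats of 1 sample according to the methods.

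Hox genes encode homeodomain transcription factors that give cells their position along the head to tail axis. They lie in 4 clusters that arose by duplication of an ancestral cluster, and a gene's paralog number gives its place: low numbers stand at the 3′ end of a cluster and act in the hindbrain and neck, and high numbers stand at the 5′ end and act in the lower trunk, limbs and tail. During development the clusters open from the 3′ end to the 5′ end, and retinoic acid and Cdx proteins are among the signals that start this. In ES cells the clusters are held by Polycomb complexes and carry active and repressive histone marks together, a state named bivalent. The cells of this study were grown in serum with LIF and inhibitors of GSK and MEK. Histone marks on their Hox clusters were not examined here.

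The value used here is the mean, over all 18 libraries, of a gene's read count divided by the library's size factor. It is 1 number per gene over depleted and control cells together, so it has no SD and no n per group, and no depleted group was set against its control. It is also an average over all cells of a culture, so transcription in few cells and weak transcription in every cell cannot be told apart. Low values in the gene table are sums of steps that 1 read adds, and 18 such steps were found, from 0.0216 to 0.115. A mean normalized count of 1 therefore stands for between 8.68 and 46.3 reads over the 18 libraries, and the depths of the libraries differed by up to 5.34-fold. The label of the cells was checked against 9 ES cell genes: Pou5f1, Nanog, Sox2, Klf4, Zfp42, Esrrb, Tfcp2l1, Dppa5a and Tdgf1 ranked between percentiles 95.8 and 99.9 of all genes with reads. Fibroblast, neural, trunk mesoderm and primitive endoderm markers had median percentiles of 23.9, 32.4, 39.9 and 32.0. Their highest members were Pdgfrb at 50.2, Sox1 at 59.0, Tbx6 at 52.5 and Gata4 at 39.2. The neural median leaves out Tubb3, which was listed at 0 and lies wholly inside other counted genes on its strand.

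Of the 38 Hox genes, 8 were listed at exactly 0: Hoxa3, Hoxa4, Hoxa5, Hoxa6, Hoxc6, Hoxc8, Hoxc9 and Hoxd4. Their paralog numbers run from 3 to 9, and all 8 are genes whose whole annotated span lies inside other genes of the same table on the same strand. Hoxa3 has an annotated span of 44275 bases (GRCm38, chr6:52169062-52213336, minus strand) that holds Hoxa4, Hoxa5 and Hoxa6, and all of it lies inside Gm28308, a gene model that runs from Hoxa2 to Hoxa3. Hoxc5 (chr15:102967443-103017429, plus strand) has a span of 49987 bases that holds all of Hoxc6, Hoxc8 and Hoxc9 and most of Hoxc10. Hoxd4 lies within Hoxd3 (chr2:74711927-74748442, plus strand). Gm28230, a gene model within Hoxd3 that overlaps the 3′ end of Hoxd4, was also listed at 0. Set against the exons of the covering genes, and not their spans, none of the 8 genes has all its exonic bases covered. Hoxa4, Hoxa5, Hoxa6, Hoxc6, Hoxc8 and Hoxc9 have no base that is exonic both in them and in a covering gene.

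**Figure D1:**
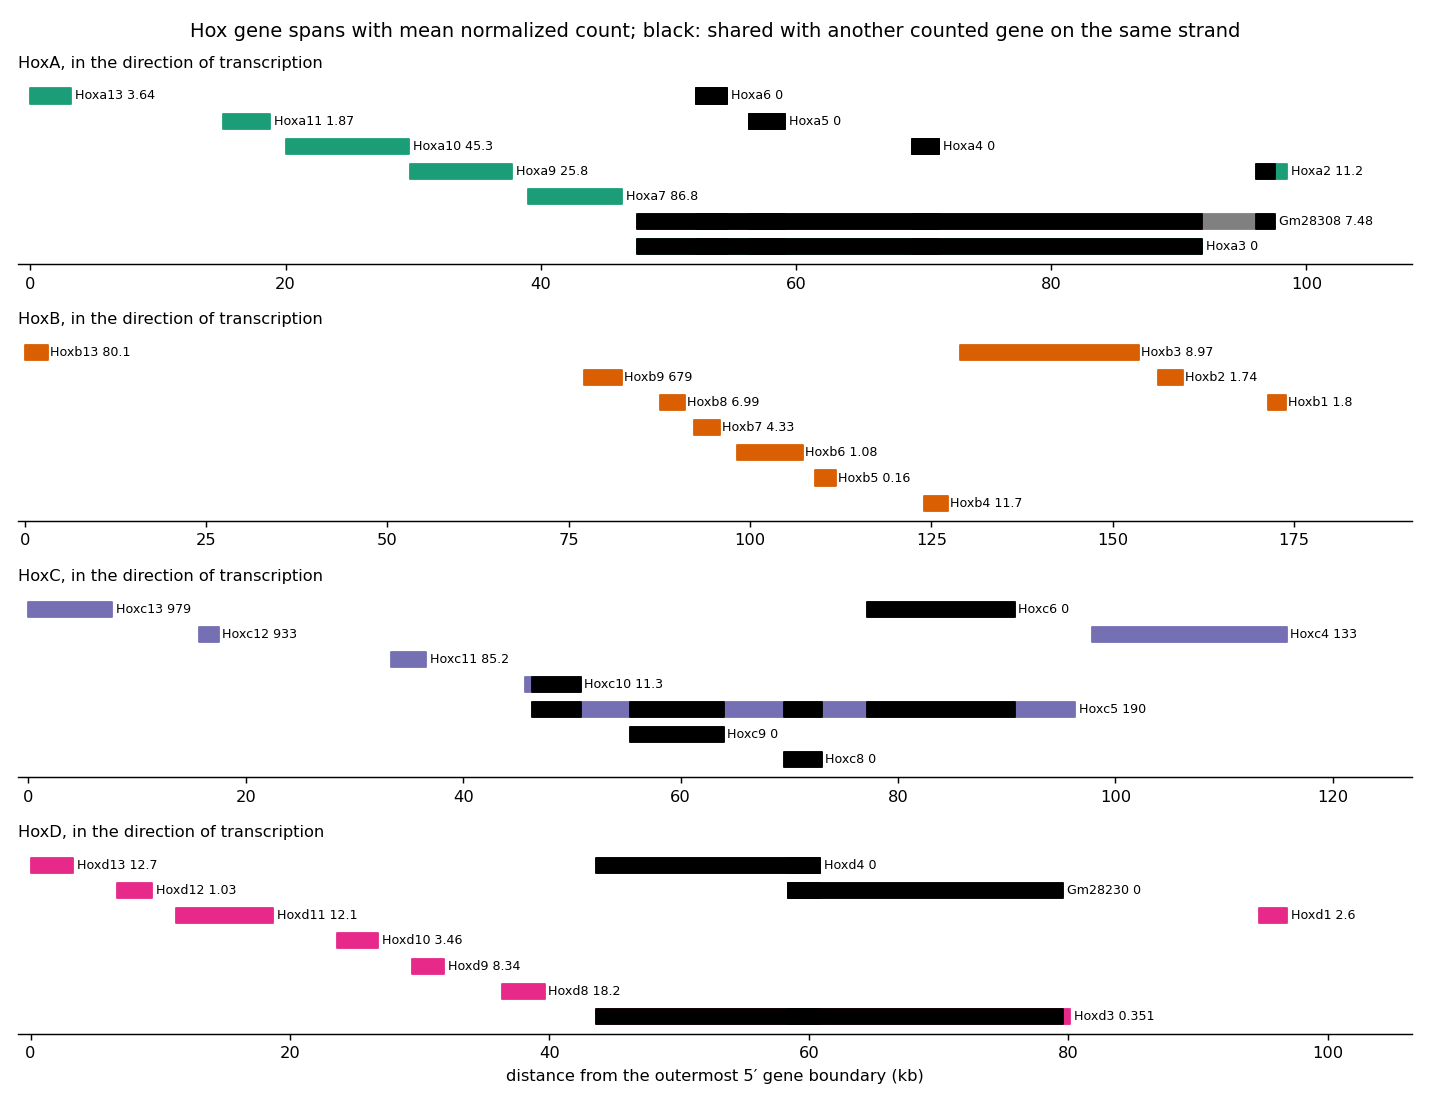
Spans of the Hox genes of each cluster along the direction of transcription, with distance in kb from the outermost 5′ gene boundary on the horizontal axis and rows used only to separate overlapping genes. Coloured stretches belong to 1 gene, black stretches are shared with another gene of the table on the same strand, grey marks the models Gm28308 and Gm28230, and the number after each name is its mean normalized count. The 8 Hox genes drawn wholly in black are the 8 listed at 0.

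The same held across the whole table. Among 400 genes whose span was wholly inside other genes of the table on the same strand, 398 were listed at 0, which is 99.5%. Among 20447 genes that shared no base in this way, 1178 (5.76%) were listed at 0, and among 72 of these that lay wholly inside genes absent from the table, 3 were at 0. Of 288 genes covered over more than 90% but not all of their span, 30.9% were at 0. Reads that lie in 2 counted genes were thus left out of both, and the 0 of a covered Hox gene is a property of the counting that carries no information on its transcription. The following values are therefore given for the 30 Hox genes with some span of their own, as mean normalized count per kb of that countable span. Of these, 26 share no base with another counted gene. Hoxa2, Hoxc5, Hoxc10 and Hoxd3 are covered over 61.0%, 60.5%, 87.3% and 98.6% of their spans, and their levels rest on 942, 19745, 647 and 526 bases.

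**Figure D2:**
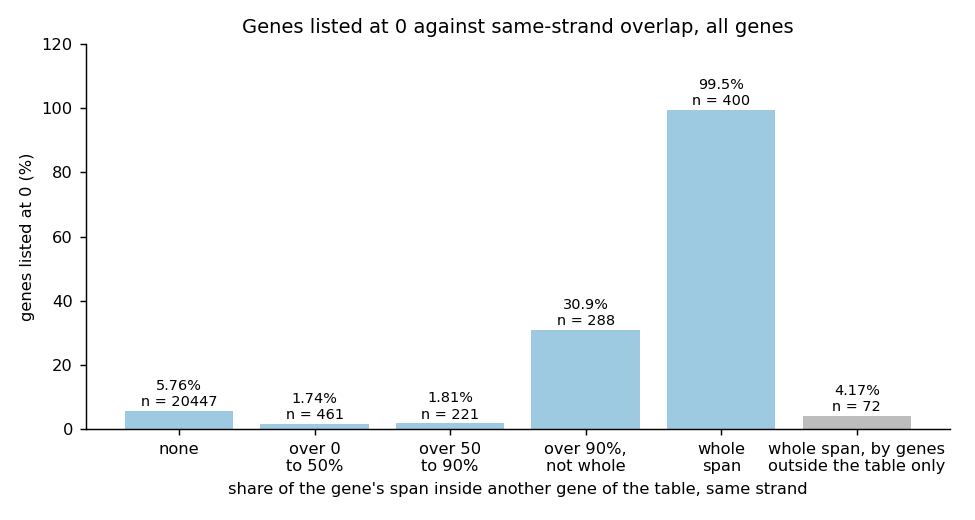
Share of genes listed at 0 (vertical axis, percent) by how much of a gene's span lies inside other genes of the table on the same strand, with the number of genes above each bar. The share is 5.76% with no overlap and 99.5% where the whole span is covered; the grey bar, 4.17%, is a subset of the first bar and holds genes covered only by genes outside the table.

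Most of the 30 Hox genes were transcribed at a low but measurable rate. Their median level was 3.30 per kb, against 23.3 per kb for all 20138 genes with reads and countable span, and their median percentile was 34.7. Of these, 5 stood above the median of all genes: Hoxc12, Hoxb9, Hoxc13, Hoxc11 and Hoxb13. The range was wide, from 0.0575 per kb for Hoxb5 to 504 per kb for Hoxc12, a ratio of 8753. A mean normalized count of at least 1 was reached by 28 of the 30 (93.3%), against 82.5% of all 21417 genes with countable span, and a count of at least 10 by 16 (53.3%), against 72.0%. With the covered genes counted as below the limit, the first share was 28 of 38 (73.7%), against 80.9% of the whole table. Hoxc13, Hoxc12 and Hoxb9 together held 77.1% of the summed Hox counts.

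**Figure D3:**
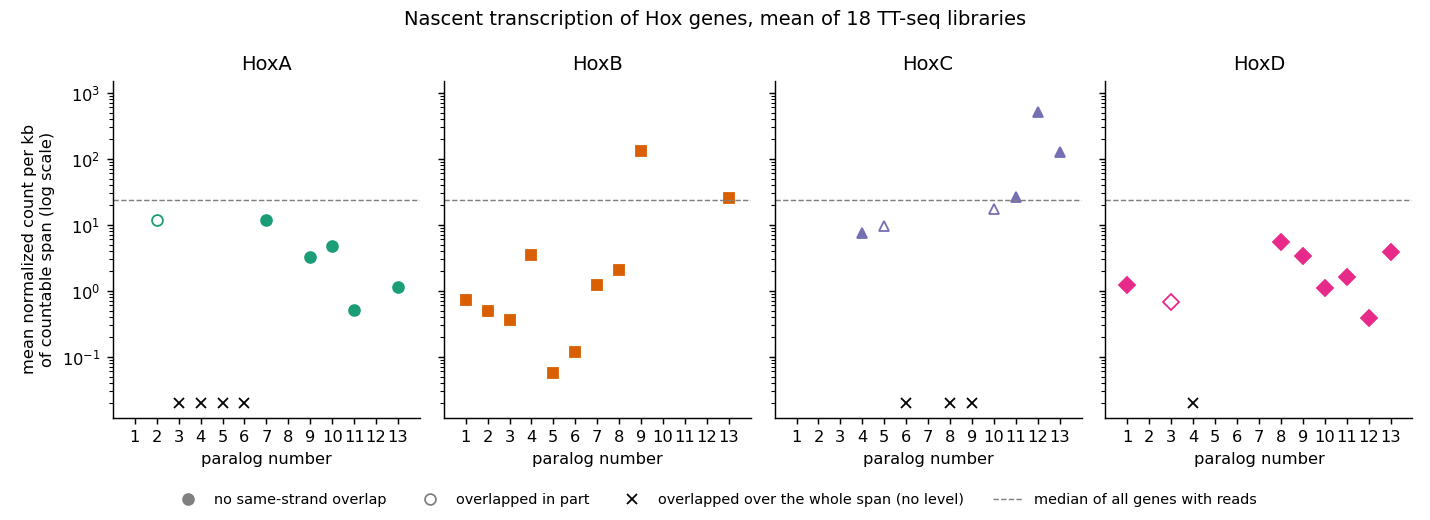
Level of each Hox gene (vertical axis, mean normalized count per kb of countable span, log scale) against paralog number, by cluster. Filled symbols are genes with no same-strand overlap, open symbols are genes overlapped in part, crosses at the foot carry no value and mark the 8 genes with no level, and the dashed line is the median of all genes with reads, 23.3. HoxC lies highest with its top at paralog 12, and HoxD reaches at most 5.49.

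HoxC had the highest median level and the largest share of counts, and Hoxc12 and Hoxc13 at its 5′ end held 82.0% of its counts. Its median level was 21.7 per kb over 6 genes, and it held 69.4% of the Hox counts. Shares of counts by cluster are not like for like, and they are not divided by length. The counting put 4 of 10 HoxA, 0 of 10 HoxB, 3 of 9 HoxC and 1 of 9 HoxD genes at 0. Hoxc12 (chr15:102936757-102938609) had a mean normalized count of 933, from 8099 to 43230 reads. This was 504 per kb, which put it at percentile 97.1 of all genes. In the ES cell marker list only Esrrb, with 401 per kb, was lower, and the next, Tdgf1, had 1006. By count with no length Hoxc12 was at percentile 58.6. It was then below all 9 ES cell genes, of which the lowest, Sox2, had 5985. Hoxc13 (chr15:102921103-102928814), known from hair and nail formation, had the highest count of any Hox gene, 979, from 8499 to 45365 reads, and 127 per kb over its longer span (percentile 76.3). Hoxc11 followed with a count of 85.2 and 26.0 per kb, 19.4-fold below Hoxc12 across a gap of 15817 bases (percentile 51.1, 740 to 3945 reads). From there to the 3′ end the levels were lower still: 17.5 per kb for Hoxc10, 9.63 for Hoxc5 and 7.44 for Hoxc4, which were percentiles 47.3, 42.4 and 40.6. Hoxc5 and Hoxc4, the 2 lowest, had counts of 190 and 133, from 1650 to 8805 and from 1157 to 6172 reads. The levels thus fell from paralog 12 to paralog 4, but this order was lost with other lengths: per kb of exons Hoxc10 had 5.92, Hoxc11 had 42.1, Hoxc4 had 51.9 and Hoxc5 had 61.5, and per kb of gene span Hoxc10 had 2.22 and Hoxc5 had 3.80, below Hoxc4. Hoxc12 stood highest per kb of exons as well, with 905.

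HoxB held both a gene near the top of the range and the lowest of all. Hoxb9 (chr11:96271457-96276595) had a mean normalized count of 679 from 5893 to 31456 reads, or 132 per kb, percentile 77.2, close to Hoxc13 per kb of countable span and below it per kb of exons, at 264 against 398. Its neighbour Hoxb8, 5309 bases away, had 2.05 per kb, 64.4-fold less, which was the largest step between adjacent measured Hox genes in any cluster. Hoxb13, which lies 74009 bases from Hoxb9 and is best known from the prostate and tail, had a count of 80.1 from 696 to 3712 reads, or 25.6 per kb (percentile 50.9). Hoxb4, a gene used to expand blood stem cells, came next with 3.46 per kb from a count of 11.7 and 102 to 540 reads (percentile 35.0). The remaining HoxB genes lay between 0.0575 and 2.05 per kb. Hoxb6 had 0.118 per kb from a count of 1.08, which is 10 to 49 reads and percentile 13.7. Hoxb5 had a count of 0.160, and this value can be made from the steps of the libraries in 1 way only: 4 reads, each in a different library. It was at percentile 9.34. Hoxb6 and Hoxb5 were the only Hox genes below percentile 20, and Hoxb5 stood 60.2-fold below Hoxb4. The HoxB median was 0.971 per kb.

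The measured HoxA genes lay in the middle and lower part of the range. Hoxa2, needed for the second pharyngeal arch, had 11.9 per kb over the 942 bases that belong to it alone, from a count of 11.2 and 98 to 519 reads (percentile 44.0). Hoxa7 had nearly the same level, 11.8 per kb, from a count of 86.8 and 754 to 4021 reads (percentile 43.9). With other lengths Hoxa7 stood above Hoxa2, at 11.8 against 4.64 per kb of gene span and 30.2 against 6.32 per kb of exons. Hoxa10, needed in the uterus, had 4.69 per kb from a count of 45.3 and 394 to 2099 reads (percentile 37.2), and Hoxa9, known from leukaemia, had 3.23 per kb. The 2 lowest were Hoxa13, with 1.14 per kb from 32 to 168 reads and a count of 3.64, and Hoxa11, with 0.505 per kb from 17 to 86 reads and a count of 1.87; they were at percentiles 27.9 and 22.5. The median was 3.96 per kb over 6 genes.

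HoxD was low throughout, with a median of 1.41 per kb over 8 genes and 1.75% of the Hox counts. Hoxd8 was its highest gene with 5.49 per kb from a count of 18.2 and 159 to 844 reads (percentile 38.3). Hoxd13, which shapes the digits, had 3.85 per kb from a count of 12.7 and 110 to 586 reads (percentile 35.8), and Hoxd9 had 3.36 per kb from a count of 8.34 and 73 to 386 reads (percentile 34.8). Hoxd11, Hoxd1 and Hoxd10 lay between 1.09 and 1.62 per kb. Hoxd3 had 0.667 per kb, but only 526 bases of it could be counted and 4 to 16 reads lie behind a count of 0.351 (percentile 24.3). Hoxd12 was lowest with 0.383 per kb from a count of 1.03 and 9 to 47 reads (percentile 20.9). The spread within HoxD, 14.3-fold from lowest to highest, was narrower than the 23.6-fold of HoxA, the 2297-fold of HoxB and the 67.7-fold of HoxC.

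Genes with the same paralog number, which have the most similar proteins, differed widely between the clusters. In paralog group 12, Hoxc12 had 504 per kb and Hoxd12 had 0.383, a ratio of 1316, and this pair gave the highest group median, 252 per kb. Group 13 was the only one measured in all 4 clusters: Hoxc13 had 127 per kb, Hoxb13 had 25.6, Hoxd13 had 3.85 and Hoxa13 had 1.14. In group 9, Hoxb9 with 132 per kb stood 40.9-fold above Hoxa9, while Hoxd9 and Hoxa9 were close, at 3.36 and 3.23. In group 1, Hoxd1 had 1.20 and Hoxb1 had 0.718 per kb. Smaller differences were seen in group 4, where Hoxc4 and Hoxb4 differed 2.15-fold, in group 8, where Hoxd8 and Hoxb8 differed 2.68-fold, and in group 3, where Hoxd3 and Hoxb3 had 0.667 and 0.365 per kb. Paralogs 9 to 13 had 85.7% of the Hox counts and a median of 3.85 per kb over 15 genes, against 0.692 over 6 genes for paralogs 1 to 3 and 3.46 over 9 genes for paralogs 4 to 8. The shares of counts are not like for like. The counting put 6 of 15 genes of paralogs 4 to 8 at 0, against 1 of 16 for paralogs 9 to 13. Hoxc13, Hoxc12 and Hoxb9 alone held 77.1% of all Hox counts. Across the 30 genes the Spearman correlation of level with paralog number was 0.35, a description over genes that share all libraries.

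PROMPTs are read from the strand opposite to the gene, within 1 kb of the start, and are degraded quickly by the nuclear exosome, so that labelled RNA shows them better than total RNA. Of the 38 Hox genes, 25 had a row and 13 had none. In 12 of those 13 genes, Hoxb3 being the exception, an annotated antisense gene such as Hoxaas3, Hoxb5os or Haglr overlaps the 1 kb window, against 3 of the 25 with a row. PROMPT values were normalized apart from the gene values, so their levels cannot be set against gene levels. For PROMPTs a mean normalized count of 1 stands for 7.76 to 37.5 reads.

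Hox PROMPTs followed the clusters. All 9 HoxC genes had a row, 8 of them with a count of at least 1, and the HoxC median was 5.36. No HoxD PROMPT reached 1: 6 were listed and the highest was Hoxd11 with 0.766. In HoxA 3 of 4 and in HoxB 3 of 6 reached 1. Over all Hox PROMPTs the share at or above 1 was 14 of 25 (56%), against 33.7% of all PROMPTs, and the share at or above 10 was 3 of 25 (12%), against 11.5%. The highest 3 were Hoxc13 with 56.9 from 442 to 2135 reads, Hoxb13 with 16.9 from 131 to 632 reads and Hoxc12 with 11.9 from 93 to 445 reads, at percentiles 96.9, 89.0 and 85.7 of PROMPTs with reads. Hoxc13 alone had 41.8% of the summed Hox PROMPT count. Other genes with full values had PROMPT counts of 9.09 for Hoxa2, 8.04 for Hoxc4, 7.15 for Hoxc11, 5.96 for Hoxb9, 2.86 for Hoxc5, 1.45 for Hoxa7, 1.25 for Hoxb4, 0.338 for Hoxa10, 0.222 for Hoxd13, 0.120 for Hoxd12 and 0.114 for Hoxd3, and none was listed for Hoxa11, Hoxa13, Hoxb5, Hoxb6, Hoxd8 or Hoxd9. The lowest values are a handful of reads: 3 reads in 3 libraries for Hoxd12, 3 reads in 2 libraries for Hoxd3, and 2 reads in 2 libraries for Hoxd10 and for Hoxb1. The PROMPT of Hoxd4 was listed at 0.

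The PROMPT rows also speak for the covered genes, because the antisense strand was counted separately. Hoxc6, Hoxc9 and Hoxc8 were listed at 0 in the gene table, and their PROMPTs had counts of 2.82, 2.30 and 0.750, at percentiles 68.1, 65.3 and 48.6 of PROMPTs with reads. At least 22, 18 and 6 reads lie behind them. The gene table thus lists 0 for genes whose PROMPT rows hold reads. These rows were matched by symbol, and which start of each gene they belong to was not determined.

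**Figure D4:**
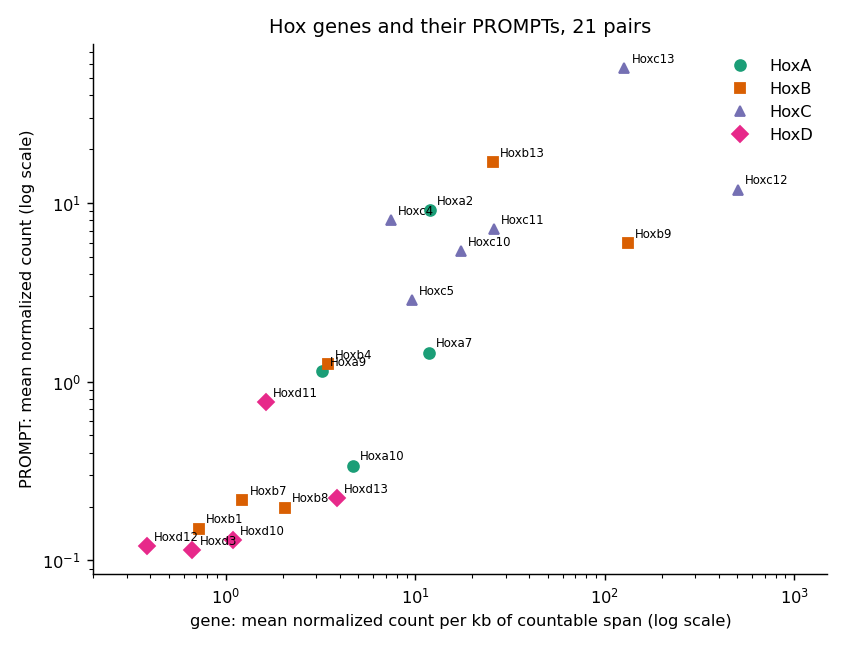
PROMPT count (vertical axis, mean normalized count, log scale) against gene level (horizontal axis, mean normalized count per kb of countable span, log scale) for the 21 Hox genes with both, with symbols by cluster. HoxC genes fill the upper right, and HoxD genes the lower left; Hoxc12 and Hoxb9 lie to the right of genes with similar PROMPT counts.

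Across the 21 Hox genes with both a level and a PROMPT row, the order of the 2 measures was alike, with a Spearman correlation of 0.91. The genes share all libraries and neighbouring genes share a cluster, so they are not independent points, and no p is given. With a count of at least 1 required in both tables, 12 genes were left and the correlation was 0.69; with the gene count not divided by length it was 0.80. Departures were seen at the top. Hoxb9 had a level of 132 per kb with a PROMPT of 5.96, while Hoxb13, at 25.6 per kb, had a PROMPT of 16.9. Hoxc12 had the highest gene level but a PROMPT of 11.9, below the 56.9 of Hoxc13, whose level was 127 per kb.

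PROMPTs start at promoters, so promoter sequences were examined where the RefSeq promoter table (GRCm38.p6) lists them, using the 250 bases before the annotated start. It lists 22 of the 38 Hox genes, with 24 promoters that are mostly of HoxA and HoxD. By level per kb of countable span, the highest genes described of HoxA and HoxD, Hoxa2 and Hoxd8, are listed. Hoxb9 and Hoxc12, the highest of HoxB and HoxC, are not. Hoxb13, Hoxc11 and Hoxc13 are not listed either, so none of the 5 Hox genes above the median of all genes is. Hoxc4, the lowest measured HoxC gene per kb of countable span, is the only HoxC gene listed. For each cluster the promoter of the listed member with the highest such level is shown, 5′ to 3′ on the strand of the gene. CCAAT on either strand (CCAAT or ATTGG) is in capitals.
Hoxa2, chr6:52164832-52165081, minus strand: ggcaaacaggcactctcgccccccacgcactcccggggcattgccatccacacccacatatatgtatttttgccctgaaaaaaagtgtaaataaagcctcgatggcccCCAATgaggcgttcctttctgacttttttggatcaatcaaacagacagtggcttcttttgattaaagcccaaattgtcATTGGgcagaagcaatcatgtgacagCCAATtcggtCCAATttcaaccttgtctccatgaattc
Hoxb4, chr11:96318017-96318266, plus strand: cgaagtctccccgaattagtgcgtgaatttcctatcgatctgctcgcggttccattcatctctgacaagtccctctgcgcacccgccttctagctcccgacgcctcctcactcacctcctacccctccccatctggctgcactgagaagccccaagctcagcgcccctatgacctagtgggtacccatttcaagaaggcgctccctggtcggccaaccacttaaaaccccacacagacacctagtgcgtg
Hoxc4, chr15:103034145-103034394, plus strand: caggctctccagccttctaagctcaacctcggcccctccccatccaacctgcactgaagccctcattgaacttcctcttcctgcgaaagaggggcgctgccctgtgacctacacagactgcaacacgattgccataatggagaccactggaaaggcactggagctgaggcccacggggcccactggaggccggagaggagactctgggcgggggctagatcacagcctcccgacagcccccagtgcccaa
Hoxd8, chr2:74704365-74704614, plus strand: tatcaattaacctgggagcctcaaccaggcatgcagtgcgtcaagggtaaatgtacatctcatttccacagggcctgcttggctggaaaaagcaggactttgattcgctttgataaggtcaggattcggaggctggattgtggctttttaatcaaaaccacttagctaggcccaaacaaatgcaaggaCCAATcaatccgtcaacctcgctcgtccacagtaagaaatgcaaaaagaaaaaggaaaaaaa

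The Hoxa2 promoter holds CCAAT 4 times, that of Hoxd8 holds it 1 time, and those of Hoxb4 and Hoxc4 do not hold these letters. The RefSeq start of Hoxc4 lies 15461 bases downstream of the start of its GENCODE span, and which of the starts its PROMPT count of 8.04 belongs to was not determined. The same limit applies to Hoxd4, Hoxa9 and Hoxa7, whose 2 starts lie 10049, 3719 and 3281 bases apart. CCAAT was present in 14 of 24 Hox promoters (58.3%), against 33.8% of all 32851 promoters of the same length. The retinoic acid receptor half-site AGGTCA was in 6 Hox promoters (25%, against 14.0%), the Pbx-Hox motif TGATNNAT in 4 (16.7%, against 7.68%), the Cdx motif TTTATG in 5 (20.8%, against 10.8%), the TATA box TATAAA in 4 (16.7%, against 12.4%) and the GC box GGGCGG in 10 (41.7%, against 32.7%), all searched on both strands. Such matches are short letter strings and are not binding sites. Hox promoters had a median GC content of 58.6%, from 40.4% to 80%, and a median of 12.5 CpG dinucleotides, against 52.4% and 6 for all promoters.

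The genes beside the clusters set the levels in context. The homeobox genes Evx1 and Evx2, which lie next to Hoxa13 and Hoxd13, had 0.316 and 0.166 per kb, below Hoxa13 and Hoxd13 and below every measured gene of HoxA and HoxD. The next genes outward were higher: Skap2 at the other end of HoxA had 104 per kb, Hibadh beyond Evx1 had 118, Mtx2 beside Hoxd1 had 63.1 and Lnpk beyond Evx2 had 81.7. HoxB lies between Ttll6, 28865 bases from Hoxb13 with 32.6 per kb, and Skap1, 96337 bases from Hoxb1 with 0.625 per kb, the latter within the range of HoxB. HoxC lies between Calcoco1 with 73.5 and Smug1 with 79.1 per kb, both below Hoxc12 and Hoxc13. The outer neighbours Snx10, Calcoco2, Snx11, Atp5g2, Cbx5 and Hnrnpa3 ranged from 91.9 to 1488 per kb.

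**Figure D5:**
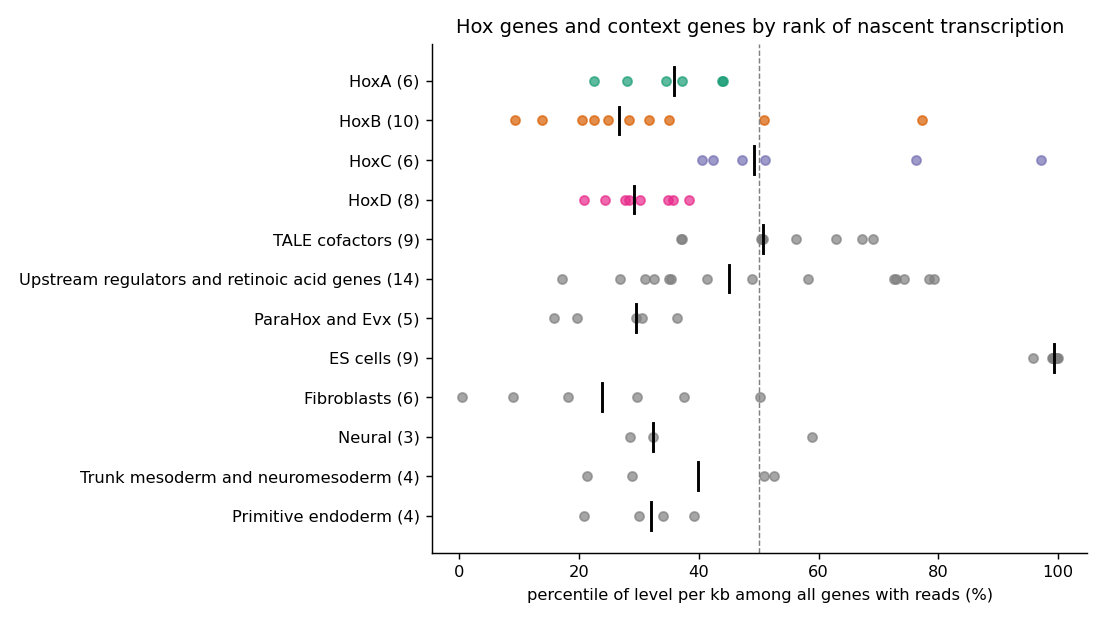
Percentile of level per kb among all genes with reads (horizontal axis, percent) for the Hox genes of each cluster and for the lists of related and marker genes, 1 point per gene, with the number of genes in brackets and the median as a black bar. HoxB and HoxD medians, 26.6 and 29.2, lie near that of the ParaHox and Evx genes, 29.5, and the ES cell genes lie at the right edge.

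Genes that work with or upstream of Hox proteins ranked higher than the Hox genes, with median percentiles of 50.6 for the cofactors and 45.1 for the regulators against 34.7. The TALE homeodomain proteins Pbx, Meis and Pknox bind DNA together with Hox proteins, and all 9 of their genes had counts of 53.8 or more, with percentiles from 37.0 (Meis1) to 69.0 (Meis2). Of 14 regulators and retinoic acid genes, Gbx2 and Cdx1 were highest with 144 and 140 per kb, while Cdx2 had 20.8 and Cdx4 had 3.59. The receptors Rara and Rarg had 107 and 110 per kb and Rarb, itself a target of retinoic acid, had 1.86. The retinoic acid degrading enzyme Cyp26a1 had 0.960 per kb, and Aldh1a2, which makes retinoic acid, had 3.48. The ParaHox genes Gsx1, Gsx2 and Pdx1, which arose from the same ancestral cluster as Hox, had 1.73, 4.16 and 1.47 per kb, within the range of HoxD.

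Among noncoding RNAs of the clusters, the PROMPT table gave rows for Hotair, Hottip, Halr1, Hoxb5os and Hoxd3os1. That of Hotair had a count of 152, above 99.4% of all PROMPTs with reads and above every Hox PROMPT. Hotair is read from the minus strand of HoxC, so the 1 kb window of its PROMPT (chr15:102947731-102948730) lies on the plus strand, between Hoxc12 and Hoxc11, 5697 bases before Hoxc11 and over no annotated gene of that strand. The row of Halr1, near the 3′ end of HoxA, had a count of 12.1. Hoxd3os1 had 0.732, Hoxb5os had 0.0835, and Hottip was listed at 0.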

How the data were processed

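The authors sequenced TT-seq libraries in pairs of reads and trimmed them with Trim Galore. Unique alignments to mm10, made by the authors with STAR, were counted with featureCounts on the expected strand of genes and of PROMPT windows from GENCODE vM25, and the authors normalized the counts with DESeq2 size factors. The signal used is the authors' deposited mean normalized count over 18 libraries; 1 pooled value per feature leaves no replicate error. The remaining columns of these tables hold the authors' fold changes, their errors and p-values between depleted and control cells and were not used, nor were the tables of other regions. Library totals are unknown, and 1-read steps gave their relative depth. Each range of reads runs from the total if all reads came from the shallowest library to that from the deepest. It bounds the number of reads behind a value and is not a measure of its precision.

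Gene spans came from GENCODE vM21, which holds 21817 of the 21859 genes. Levels were first planned per kb of exons. Since the zeros showed counting over whole spans with shared stretches dropped, levels were divided by the countable span, and a read touching a shared stretch is lost, so levels of partly covered genes may be too low. Full values are given for the 3 highest and 2 lowest genes of each cluster and the 3 highest PROMPTs; other lists were set by hand, and the promoters of listed members were chosen after values were seen. 1 gene that the rule finds is not reported here. The members and lists were chosen with earlier results of these data known. Python 3.11.15, pandas 2.3.3 and scipy 1.17.1 were used, and overlap lengths and read steps were tested on simulated data.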

Additional observations from a re-analysis of the deposited data

How the results depend on the processing

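No paired analysis was possible because the deposited means carry no replicate, and for the same reason no library could be left out. The length moved the cluster medians, taken over the 30 genes with countable span. Per kb of exons, as first planned, those of HoxB, HoxC and HoxD were 2.38, 56.7 and 2.39, and the highest paralog group median was 453. With no length, the medians of HoxA, HoxB, HoxC and HoxD were 18.5, 5.66, 161.7 and 5.90, and the highest paralog group median was 467. Per kb of gene span none moved by more than 1.5-fold. Without genes covered in part, or without genes whose exons overlap those of another, the HoxC median was 76.5. With the covered genes entered at 0, the medians of HoxA and HoxC were 0.824 and 9.63. HoxC and paralog group 12 had the highest median in all of these, and HoxA was second except with the covered genes at 0, where it was last. Group 12 has only 2 genes, Hoxc12 with 504 per kb and Hoxd12 with 0.383, so its median follows Hoxc12 alone. Of the 30 genes, 17 moved by more than 1.5-fold per kb of exons, 4 per kb of gene span, 29 per kb of coding exons and 29 with no length. The share of Hox genes was 42.1% at a count of at least 10, against 70.6% of all genes. It was 93.3% at a count of at least 1 when covered genes were left out, against 82.5% of all genes with countable span. The share of Hox PROMPTs was 96% above 0, against 72.1% of all PROMPTs, and 12% at 10 or more, against 11.5%. The correlation of genes and PROMPTs was 0.69 at a count of at least 1 in both and 0.80 with no length, and the median percentile was 26.0 among genes with a count of at least 1 and 24.0 with no length. The settings for genes covered in part or wholly, and the correlation without PROMPT windows over antisense genes (0.91), were chosen after seeing the data. Depth limits the low end: Hoxb5, Hoxd3 and the lowest HoxD PROMPTs rest on a few reads.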
